A study of Mus musculus with 6 samples.

Results

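The genes that carry MHC class I antigen presentation were examined in the Lyve-1+ and Lyve-1- macrophages of the mouse mammary gland. They were taken by gene symbol, as 10 of the 24061 symbols in the table of RNA-seq counts, and comprised the heavy chains *H2-K1*, *H2-D1* and *H2-T23*, the light chain *B2m*, the peptide transporter genes *Tap1* and *Tap2*, the transporter-bound chaperone *Tapbp*, the transactivator *Nlrc5*, and the inducible proteasome subunits *Psmb8* and *Psmb9*. All 10 passed the filter on low counts.

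Macrophages were sorted by flow cytometry from the inguinal (#4) mammary glands of female FVB/N mice as CD45+CD11b+F4/80+Lyve-1+ or CD45+CD11b+F4/80+Lyve-1- cells, and no treatment or genetic change is named for either subset. Each subset had 3 libraries, each made from the glands of 4 mice, and whether the subsets were sorted from the same mice is not given in the sources used here. The mice of replicate 1 were 6 weeks old in both subsets and those of replicates 2 and 3 were 10 weeks old, so that age within a subset cannot be told apart from a single pool. FVB/N mice carry the H-2q haplotype of the MHC, whereas the mm10 genome to which the reads were mapped is C57BL/6 and H-2b, and the sort gate given for the RNA-seq samples names CD45, CD11b, F4/80 and Lyve-1 alone.

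MHC class I molecules display peptides of cytosolic proteins to CD8+ T cells. The proteasome cuts these proteins, TAP carries the peptides into the endoplasmic reticulum, and tapasin holds the empty heavy chain and beta-2-microglobulin next to the transporter until a peptide is bound. Interferon-gamma induces most of these genes, in part through NLRC5, which acts at the W, S, X and Y motifs of class I promoters. Macrophages use the same pathway, and some also display exogenous antigen on class I by cross-presentation.

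The members lie close to each other in the genome (GENCODE M21, GRCm38). Of the 10, 8 are on chromosome 17, where *Psmb9*, *Tap1*, *Psmb8* and *Tap2* sit in 34.3 kb between positions 34181987 and 34216321. The gene models of *Tap1* and *Psmb9* run in opposite directions and overlap by 212 bases, so that a read in the overlap belongs to 1 of them by strand alone, and whether strand was used in counting is not given in the sources used here. *H2-K1* (chr17:33996017-34000347, minus strand) and *H2-D1* (chr17:35262730-35267499, plus strand) lie 1.26 Mb apart, at the ends of the classical region. *B2m* is on chromosome 2 (chr2:122147686-122153083) and *Nlrc5* on chromosome 8 (chr8:94434356-94527272).

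RefSeq (GRCm38.p6) gave a window of 250 bases before the start for 8 of the 10 members. The windows of *H2-K1* (chr17:34000348-34000597, minus strand) and *B2m* (chr2:122147437-122147686, plus strand) are shown because they hold side by side the motifs by which heavy chain and light chain are known to be regulated together. Capitals mark matches on either strand to the letters of the NF-kB motif (GGGANNNNCC), the Y box (CCAAT), the core of the X2 box (TGACG), the core of the ISRE (GAAANNGAAA), the GAS element (TTCNNNGAA) and the TATA box (TATAAA); the 2 NF-kB matches in each window overlap each other.
H2-K1: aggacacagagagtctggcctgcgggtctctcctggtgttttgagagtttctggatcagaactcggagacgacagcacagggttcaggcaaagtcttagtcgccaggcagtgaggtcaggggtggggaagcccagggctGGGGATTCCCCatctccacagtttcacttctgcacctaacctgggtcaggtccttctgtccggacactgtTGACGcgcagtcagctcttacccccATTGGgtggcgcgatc
B2m: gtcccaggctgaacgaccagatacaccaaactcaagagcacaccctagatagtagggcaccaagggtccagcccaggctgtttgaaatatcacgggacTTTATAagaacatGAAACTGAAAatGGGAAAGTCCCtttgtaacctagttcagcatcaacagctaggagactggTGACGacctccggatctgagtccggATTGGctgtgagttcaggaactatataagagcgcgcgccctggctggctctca

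Both windows held an NF-kB match upstream of an X2 box core and a Y box. RefSeq gave 2 starts for *H2-K1*. From the start used here, the X2 box core lay 41 bases and the Y box 16 bases before the start, whereas from the other start the X2 box core lay at 55 bases and a Y box at each of 30 and 6 bases. In *B2m* the X2 box core and the Y box lay at 78 and 53 bases. The *B2m* window also held a match to the letters of the ISRE core, at 139 bases, which preceded its NF-kB match. A run of 47 bases around the NF-kB match of *H2-K1*, from 141 to 95 bases before the start, was identical in the *H2-D1* window, from 201 to 155 bases. Over the 8 members with a window, a Y box was present in 7, an X2 box core in 5, an NF-kB match in 3, the TATA letters in 3, an ISRE core in 2 and a GAS element in 1. The TATA letters lay 26 bases before the start in *H2-D1*, 152 in *B2m* and 237 in *Psmb8*. Of all 32851 windows in the reference, 33.8% held a Y box, 17.8% an X2 box core, 17.6% an NF-kB match, 12.4% a TATA box, 2.98% an ISRE core and 7.02% a GAS element. *Tap1* and *Psmb9* are read from opposite strands of windows that share 225 bases, so their matches are not separate. The NF-kB matches of *H2-K1* and *H2-D1* lie in their identical run and are not separate either. These matches describe letters of the reference genome and not sites in use, and FVB/N sequence was not read. A window without a match can hold a variant that these letters miss.

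The libraries held between 6478007 and 21406839 counts, and a count of 0 allowed up to 3 counts, or 0.144 to 0.437 CPM (read counts relative to library size after TMM scaling), for counting error only. *Lyve1*, whose protein was used for the sort, was at 1.43 to 7.44 CPM in the Lyve-1- libraries and at 597 to 2352 CPM in the Lyve-1+ libraries. The log2 fold change of *Lyve1* was 7.93 ± 0.94 (SE), with an adjusted p of 0.0254 by edgeR and 2.41e-18 by DESeq2. By edgeR, *Lyve1* thus missed the call rule used below, an adjusted p under 0.01. The absence of a call is therefore no measure of equal levels. The other sort genes, *Ptprc* (CD45), *Itgam* (CD11b) and *Emr1* (F4/80), had log2 fold changes of -0.62 ± 0.26, 0.08 ± 0.25 and -0.29 ± 0.28 (SE) between Lyve-1+ and Lyve-1- libraries, and none passed an adjusted p under 0.05, although *Ptprc* was lower in every Lyve-1+ library (645 to 1128 CPM) than in every Lyve-1- library (1210 to 1693 CPM). The 10 macrophage markers examined were all detected and summed to between 9730 and 13700 CPM in the Lyve-1- subset and between 11200 and 13400 CPM in the Lyve-1+ subset. In log2 fold change, 6 of these markers were above 0 and 4 below. Without overlap, 3 were higher and 1 was lower, against 7.82% and 6.5% of all genes tested. Fibroblast markers summed to 256 to 316 CPM in Lyve-1- and 457 to 1360 CPM in Lyve-1+ libraries. Of their 7 log2 fold changes, 6 were above 0. Above 0 were also 5 of 6 B cell, 5 of 7 endothelial and 2 of 3 neutrophil markers tested. Below 0 were 8 of 8 mammary epithelium, 4 of 4 NK cell, 5 of 6 T cell and 4 of 6 monocyte markers. None of these passed an edgeR adjusted p under 0.05. By DESeq2, 3 fibroblast markers and 1 neutrophil marker did, all higher in Lyve-1+, as did 333 of all genes in either direction. The part of these markers in the class I values was not tested. Reads on olfactory receptor genes were uneven, with 652 and 370 of 1122 such genes counted in Lyve-1- replicate 3 and Lyve-1+ replicate 1 and 4 to 134 in the other 4 libraries. The members together took 0.26% to 0.407% of all counts.

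No class I presentation gene passed the test for a difference between the Lyve-1+ and Lyve-1- macrophages, while all 10 had fitted values below 0. The test was edgeR's quasi-likelihood test over 13348 genes. The call rule was an adjusted p under 0.01 together with a log2 fold change between 1 and 10 in size, which 0 members met and 0.112% of all genes tested did (15 genes). At an adjusted p under 0.05 there were also 0 members, and 0.629% of all genes passed (84 genes, 60 higher and 24 lower in Lyve-1+). The smallest adjusted p of a member was 0.797, and 0 of 10 had an unadjusted p under 0.05, which 7.69% of all genes had. DESeq2 gave 0 members at an adjusted p under 0.05. The log2 fold changes of the members were between -0.76 and -0.11, all 10 below 0, as were 50.6% of all genes tested. Their median was -0.22, against -0.01 over all genes tested. Without Lyve-1- replicate 2, *B2m*, *Tap1* and *Tapbp* were above 0 and 7 of 10 remained below it. In bulk RNA, fewer cells of a type and less RNA per cell cannot be told apart.

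**Figure D1:**
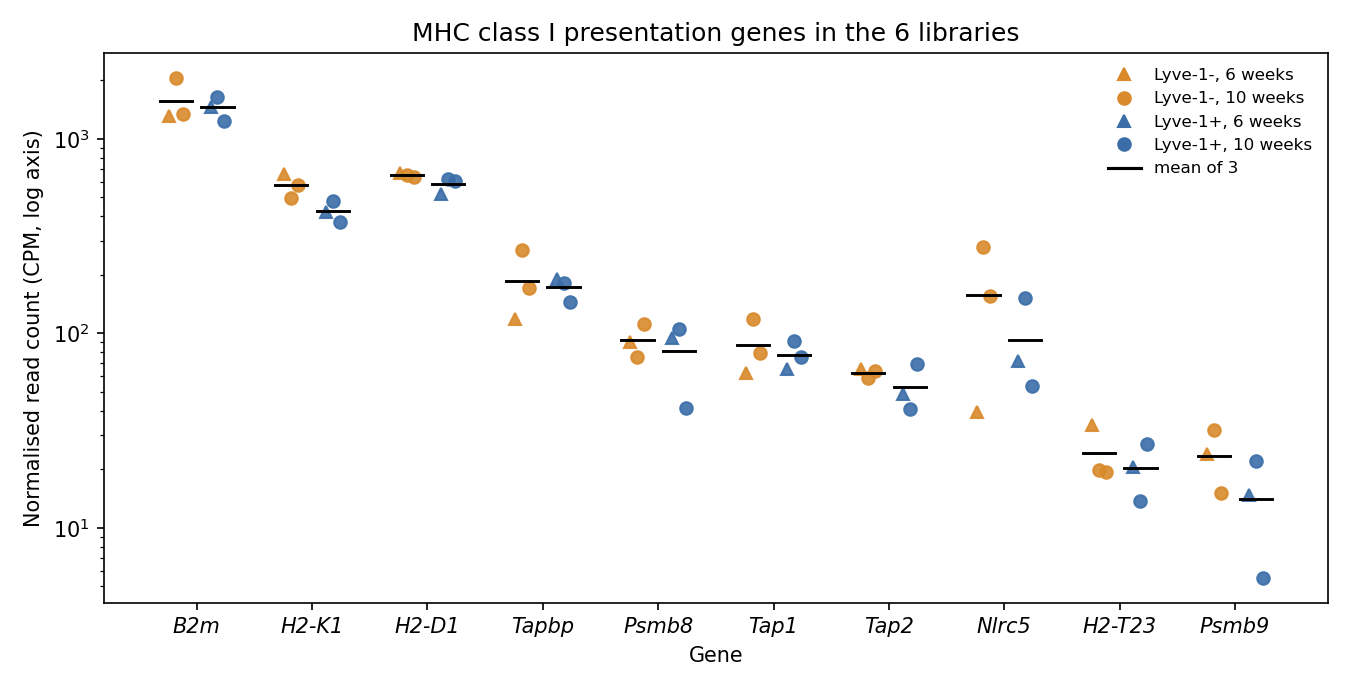
Normalised read count (CPM, log axis) of each class I presentation gene in the 3 Lyve-1- and 3 Lyve-1+ libraries, ordered from left to right by level per kb; each point is 1 library (a pool of 4 mice), triangles are 6 weeks and circles 10 weeks of age, and the bar is the mean of 3. *H2-K1* and *H2-D1* are the genes whose subsets do not overlap, and *Nlrc5* spans the widest range, from 39.4 to 278 CPM.

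Of the members, *H2-K1* had the smallest p, and the classical heavy chains *H2-K1* and *H2-D1* were those without overlap between the subsets. *H2-K1*, which encodes the K heavy chain, was at 656, 494 and 579 CPM in replicates 1, 2 and 3 of the Lyve-1- subset and at 422, 477 and 374 CPM in those of the Lyve-1+ subset. The subsets did not overlap, by a narrow margin between Lyve-1- replicate 2 and Lyve-1+ replicate 2. The log2 fold change was -0.44 ± 0.24 (SE, n = 3 and 3), with a 95% confidence interval of -0.96 to 0.08 and an edgeR adjusted p of 0.797. *H2-D1*, the gene of the D heavy chain, was at 666, 656 and 633 CPM in the Lyve-1- libraries and at 524, 622 and 611 CPM in the Lyve-1+ libraries. These values did not overlap either, but the difference was small, at a log2 fold change of -0.15 ± 0.23 (interval -0.64 to 0.33). The 2 genes were the only members with separate subsets, against 6.5% of all genes tested with every Lyve-1+ library below every Lyve-1- library and 7.82% with every one above.

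*H2-T23* encodes Qa-1, the nonclassical molecule that presents leader peptides of other class I chains to NK cell receptors. Its levels were 33.9, 19.7 and 19.4 CPM in Lyve-1- cells and 20.5, 13.7 and 27.0 CPM in Lyve-1+ cells. The subsets overlapped, and the log2 fold change of -0.26 ± 0.59 had an interval from -1.51 to 1.00. In the 10-week libraries alone it was 0.04, and leaving out Lyve-1- replicate 1 gave 0.05. Reads of the heavy chains are partly shared, since 8.79% of 50-base windows of the *H2-K1* transcript, 14.3% of *H2-D1* and 28.8% of *H2-T23* also occur in transcripts of other genes, and how such reads were counted could move each value. When the 32 class I heavy chain rows were summed into 1 before the fit, the log2 fold change was -0.50 (edgeR adjusted p = 0.575). The sum was 2160, 2183 and 2419 CPM in Lyve-1- cells and 1435, 1806 and 1551 CPM in Lyve-1+ cells, without overlap.

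*B2m*, the light chain shared by all class I heavy chains, was the most abundant member. It was at 1314, 2057 and 1339 CPM in the Lyve-1- libraries and at 1465, 1650 and 1236 CPM in the Lyve-1+ libraries. The highest and the lowest Lyve-1- libraries enclosed all but 1 of the Lyve-1+ libraries, and the log2 fold change was -0.11 ± 0.25 (interval -0.64 to 0.41). The ratio of *B2m* to the sum of *H2-K1* and *H2-D1* was 1.29 ± 0.432 (SD, n = 3) in Lyve-1- and 1.44 ± 0.155 in Lyve-1+ cells, with overlapping ranges.

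The peptide loading members varied between pools more than between subsets. *Tap1*, a subunit of the peptide transporter, was at 62.2, 119 and 79.4 CPM in Lyve-1- cells and at 65.5, 91.4 and 76.0 CPM in Lyve-1+ cells. All 3 Lyve-1+ values lay inside the Lyve-1- range. *Tapbp*, which encodes tapasin, had the same form, at 119, 268 and 171 CPM in Lyve-1- and 190, 182 and 146 CPM in Lyve-1+ libraries. The log2 fold changes were -0.16 ± 0.35 for *Tap1* and -0.11 ± 0.32 for *Tapbp*, and leaving out Lyve-1- replicate 2 gave 0.14 and 0.26. *Tap2*, the other transporter subunit, was even in Lyve-1- cells, at 65.4, 58.8 and 63.9 CPM, and ranged from 40.6 to 69.7 CPM in Lyve-1+ cells, with a log2 fold change of -0.24 ± 0.37. The ratio of *Tap1* to *Tap2* lay between 0.951 and 2.03 in Lyve-1- cells and between 1.09 and 2.25 in Lyve-1+ cells.

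Of the inducible proteasome subunits, which replace constitutive subunits of the catalytic core after interferon exposure, *Psmb8* (LMP7) was at 90.4, 75.7 and 112 CPM in the Lyve-1- libraries and at 95.2, 105 and 41.5 CPM in the Lyve-1+ libraries. *Psmb9* (LMP2) was at 23.9, 31.7 and 15.0 CPM in Lyve-1- cells ranged from 5.54 to 22.04 CPM in the Lyve-1+ libraries. Lyve-1+ replicate 3 was the lowest library for both. The log2 fold change of *Psmb8* was -0.20 ± 0.38, and it was 0.09 without that library. *Psmb9* had a log2 fold change of -0.73 ± 0.70, and its interval reached from 0.214-fold to 1.69-fold of the Lyve-1- level.

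*Nlrc5*, the class I transactivator, was the least steady member. Its levels were 39.4, 278 and 155 CPM in Lyve-1- replicates 1, 2 and 3 and 72.5, 153 and 53.5 CPM in the Lyve-1+ replicates. The 6-week Lyve-1- library was the lowest of all 6 and the 10-week Lyve-1- libraries were the highest, a range of 7.04-fold within 1 subset. The log2 fold change was -0.76 ± 0.63 (interval -2.17 to 0.66) over all libraries, -1.08 in the 10-week libraries alone and -0.06 without Lyve-1- replicate 2. Between the ages, with the subset as a second term, the log2 fold change of *Nlrc5* was 1.37 ± 0.58 for 10 against 6 weeks (unadjusted p = 0.039, adjusted p = 1 by edgeR). No member had an age difference at an adjusted p under 0.05, which 0.0225% of all genes had, and each subset had only 1 library at 6 weeks.

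**Figure D2:**
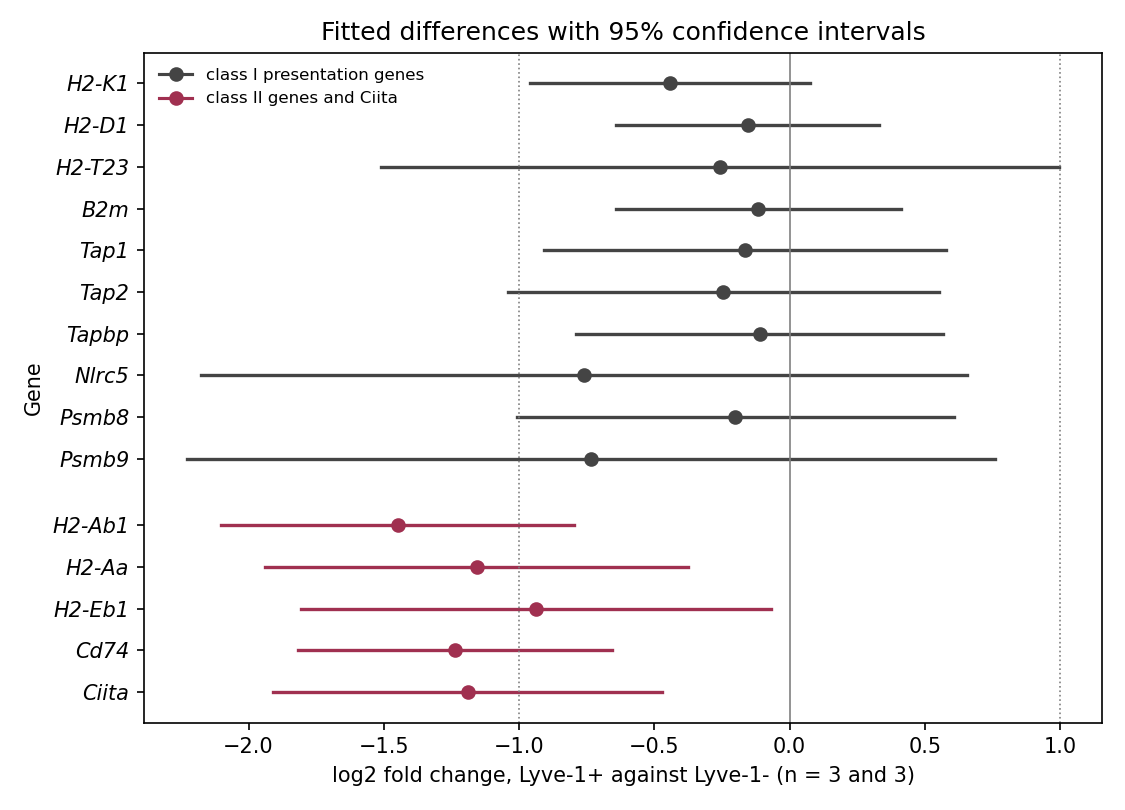
Fitted log2 fold change of Lyve-1+ against Lyve-1- libraries (points, n = 3 and 3) with 95% confidence intervals (lines) for the 10 class I presentation genes and, below them, 5 class II genes; dotted lines mark a change of 1 on the log2 scale. All 10 class I intervals include 0, and those of *H2-K1*, *H2-D1*, *B2m*, *Tap1* and *Tapbp* lie wholly between the dotted lines, whereas the class II intervals lie below 0.

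The precision of these values differed between members. The 95% confidence interval lay within a change of 1 on the log2 scale, in either direction, for 5 members, which were *H2-K1*, *H2-D1*, *B2m*, *Tap1* and *Tapbp*. For the other 5 a change of that size in the Lyve-1+ subset was not outside the interval. The spread of log2 CPM within a subset was lowest for *H2-D1* (SD 0.1) and *H2-K1* (SD 0.191), highest for *Nlrc5* (SD 1.15) and *Psmb9* (SD 0.786), and had a median of 0.406 over the members.

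Levels of the members were compared per length, as CPM per kb of the longest coding transcript over all 6 libraries. The effect of mapping H-2q reads to an H-2b genome on these levels, and on ratios between genes, was not tested. *B2m* was highest, at 1756 ± 354 CPM per kb (SD, n = 6), followed by *H2-K1* at 309 ± 63.7 and *H2-D1* at 294.3 ± 24.3. The ranges of *H2-K1* and *H2-D1* overlapped, and *H2-K1* was above *H2-D1* in 3 of 6 libraries. *Tapbp* at 61.8 ± 17.5 and *Psmb8* at 53.3 ± 15.7 came next and overlapped each other. *Tap1* followed at 27.9 ± 7.07. Then *Tap2* at 16.8 ± 3.23, *Nlrc5* at 16.5 ± 11.8, *H2-T23* at 15.2 ± 4.78 and *Psmb9* at 13.9 ± 6.69 each overlapped the next. In this order the range did not overlap that of the next gene for *B2m*, *H2-D1* and *Tap1*, although *Nlrc5*, *H2-T23* and *Psmb9*, further down, reached into the range of *Tap1*, and the mean levels of the highest and lowest member were 126-fold apart.

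**Figure D3:**
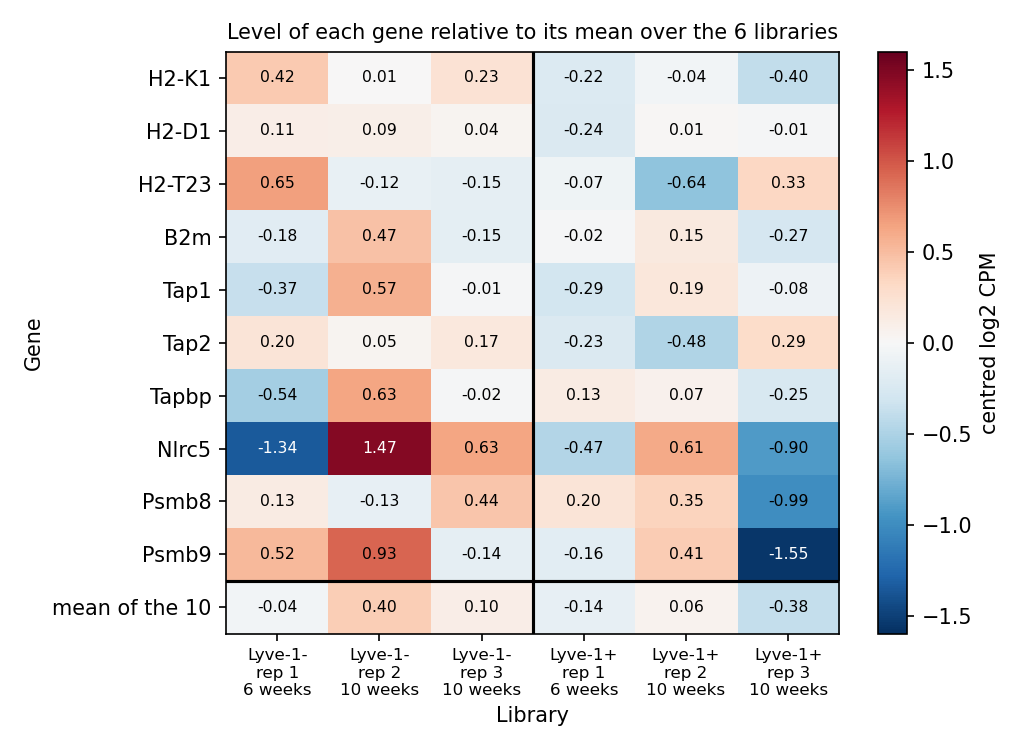
Level of each class I presentation gene in each library as log2 CPM minus the gene's mean over the 6 libraries (colour and printed value), with the mean of the 10 genes in the last row. Lyve-1- replicate 2 (mean 0.40) and Lyve-1+ replicate 3 (mean -0.38) stand at the ends, and no gene but *H2-K1* has only positive values in 1 subset and only negative values in the other.

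The extremes of the members fell in a few libraries. Lyve-1- replicate 2 had the highest level of 5 members, *B2m*, *Tap1*, *Tapbp*, *Nlrc5* and *Psmb9*, whereas Lyve-1- replicate 1 had the highest level of the 3 heavy chains and the lowest of *Tap1*, *Tapbp* and *Nlrc5*. Lyve-1+ replicate 3 had the lowest level of 4 members, *H2-K1*, *B2m*, *Psmb8* and *Psmb9*. The mean of the centred log2 levels over the 10 genes was -0.04, 0.40 and 0.10 in the Lyve-1- libraries and -0.14, 0.06 and -0.38 in the Lyve-1+ libraries, which overlapped. The genes nearest to this mean pattern among 8291 genes with at least 10 CPM on average, by the root mean square difference over 6 libraries, were *Csnk1a1* (0.035 on the log2 scale), *Fam129b* (0.057), *Tab2* (0.066), *Nab1* (0.081) and *Cpd* (0.084). The member nearest to it was *B2m* (0.144) and the farthest was *Nlrc5* (0.796).

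Other genes of the pathway were read from the same fit in 10 lists of 100 genes, of which 90 were tested. Of these, 33 were above 0 and 57 below 0, with a median log2 fold change of -0.15. None met the rule of an adjusted p under 0.01 with the fold limits, and 1 gene, *Fcgrt*, passed an adjusted p under 0.05. At an unadjusted p under 0.05 there were 3 higher and 11 lower genes, 14 of 90, against 7.69% of all genes tested, and by DESeq2 1 gene met the first rule. Without overlap between the subsets were 5 higher and 13 lower genes of the 90, against 7.82% and 6.5% of all genes tested.

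*Fcgrt* encodes the class I-like heavy chain of the neonatal Fc receptor, which pairs with beta-2-microglobulin but carries IgG and albumin in place of peptides. It was at 95.9, 89.7 and 88.3 CPM in Lyve-1- libraries and at 899, 298 and 351 CPM in Lyve-1+ libraries. The subsets were far apart, and Lyve-1+ replicate 1 stood above the other 2. The log2 fold change was 2.498 ± 0.386 with an edgeR adjusted p of 0.012, which lay between 1.22e-11 and 0.144 over the alternatives. Leaving out Lyve-1+ replicate 1 gave a log2 fold change of 1.84. The adjusted p was 0.0762 when Lyve-1- replicate 3 was left out, and 0.144 when both libraries with most olfactory receptor genes were. Among the other 5 class I-like molecules tested, all were below 0, the lowest being *Procr*, the endothelial protein C receptor, at -1.14 ± 0.57 (adjusted p = 0.698).

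Of 18 other class I heavy chain genes, 10 were tested, with 3 above 0, 7 below 0 and a median of -0.37, and 6 had no counts in any library. Counts of 0 do not show that these genes were silent. Reads of H-2q mice were mapped to an H-2b genome, and how shared reads were counted is not given. The lowest gene tested was *H2-M2*, at 98.6, 312 and 405 CPM in Lyve-1- and 2.36, 36.9 and 28.6 CPM in Lyve-1+ libraries. The subsets did not overlap, and the log2 fold change was -3.58 ± 1.05 with an edgeR adjusted p of 0.386, while DESeq2 gave 0.0455. The call changed when age was taken into account, since the adjusted p was 5.46e-05 with age as a covariate and 0.000941 in the 10-week libraries alone, at log2 fold changes of -4.02 and -3.45, and the alternatives ranged from 6.1e-07 to 0.875. Both 6-week libraries were the lowest of their subset. Markers of mature dendritic cells were also lower in Lyve-1+ libraries, with 5 of 5 tested below 0 and 4 of them not overlapping, against 6.5% of all genes tested. An adjusted p under 0.05 was reached by 0 of these 5 markers in edgeR and by 4 in DESeq2. Their list of 6 summed to between 383 and 2000 CPM in Lyve-1- and between 42.4 and 236 CPM in Lyve-1+ libraries, and none was at 0 in every library. Their part in the level of *H2-M2* was not tested. The highest fitted value was that of *H2-Bl*, at 1.03 ± 2.12, which was under 6 CPM in every library.

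*H2-Q4*, chosen after its values were seen as the other heavy chain without overlap, was at 349, 378 and 428 CPM in Lyve-1- and 245, 288 and 267 CPM in Lyve-1+ libraries. Its log2 fold change was -0.53 ± 0.25 (adjusted p = 0.641). Without *H2-M2* the heavy chain sum was 2061, 1871 and 2014 CPM in Lyve-1- and 1433, 1769 and 1522 CPM in Lyve-1+ cells, still without overlap.

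The genes of peptide loading and trimming in the endoplasmic reticulum stood mostly on the other side of 0. Of 9 tested, 6 were above 0 and 3 below, with a median of 0.35, and none passed an adjusted p under 0.05. The highest was *Pdia4*, a disulphide isomerase, at 0.75 ± 0.31 (adjusted p = 0.534), and the lowest was *Sppl3*, an intramembrane protease of the Golgi, at -1.29 ± 0.67 (adjusted p = 0.728). *Hspa5*, the chaperone BiP, named after its values were seen, was at 1774, 1571 and 1776 CPM in Lyve-1- and 2625, 2380 and 2501 CPM in Lyve-1+ libraries. These values were far from overlapping, but the adjusted p was 0.448 at a log2 fold change of 0.55 ± 0.21.

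Proteasome genes lay on both sides of 0. The constitutive core had 8 genes above and 7 below 0 of 15 tested and a median of 0.04, which became -0.02 when libraries were scaled by total counts alone. *Psmb5*, *Psmb6* and *Psmb7*, which encode the constitutive counterparts of the inducible subunits, had log2 fold changes of 0.41 ± 1.96, -0.37 ± 0.42 and -0.41 ± 0.47. *Psmb5* had between 2 and 116 counts in a library, too few for a comparison. *Psma2*, a structural subunit, was the lowest of the core at -0.64 ± 0.45. The ratio of *Psmb9* to its counterpart *Psmb6* was 0.203 to 0.627 in Lyve-1- and 0.137 to 0.303 in Lyve-1+ cells. Among partners of the inducible form, *Psmb10* had a log2 fold change of 0.43 ± 0.50, and *Pomp*, the assembly factor, of 0.67 ± 0.33. *Psme1*, a subunit of the PA28 activator, was at 223 to 277 CPM in Lyve-1- and at 134 to 163 CPM in Lyve-1+ libraries. Its subsets were separate, with a log2 fold change of -0.73 ± 0.26 and an adjusted p of 0.386. Of the 4 partners tested, 1 was lower and 1 higher without overlap. Of 6 cytosolic peptidases tested, 2 were above and 4 below 0, from *Npepps* at -0.70 ± 0.43 to *Thop1* at 0.41 ± 1.09.

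Of the regulators, 18 transcription factors were tested with 5 above and 13 below 0 and a median of -0.21, and none passed an adjusted p under 0.05. *Rfxap*, a subunit of the factor that binds the X box, was the highest at 1.39 ± 1.44, and *Eed*, a subunit of the Polycomb complex PRC2, was the lowest at -0.89 ± 0.39. The 10 interferon receptor and signalling genes had 2 above and 8 below 0 and a median of -0.15. *Jak2*, a kinase of the interferon-gamma receptor, was at 600, 498 and 486 CPM in Lyve-1- and 84.1, 223 and 288 CPM in Lyve-1+ libraries. Its levels were separate in the subsets, with a log2 fold change of -1.41 ± 0.37 and an edgeR adjusted p of 0.145, while DESeq2 gave 0.0242 and the alternatives ranged from 0.000475 to 0.585. *Socs3*, which restrains cytokine signalling, had the highest value of this list, 0.39 ± 0.24.

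Of 4 inhibitory or class I-binding receptors on myeloid cells, 2 were above and 2 below 0, from *Lilrb4* at -0.71 ± 0.26 to *Klra17* at 0.60 ± 2.15. Of 8 genes linked to cross-presentation, 2 were above and 6 below 0, with a median of -0.19. *Vamp8*, a vesicle fusion protein, was the highest at 0.31 ± 0.41. *Rab27a*, a GTPase of secretory vesicles, was the lowest of this list, at 44.0, 25.2 and 43.6 CPM in Lyve-1- and 13.5, 5.61 and 4.16 CPM in Lyve-1+ libraries. The subsets were separate, and the log2 fold change of -2.28 ± 0.65 had an edgeR adjusted p of 0.199 and a DESeq2 adjusted p of 0.0259, with 0.821 as the highest over the alternatives.

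**Figure D4:**
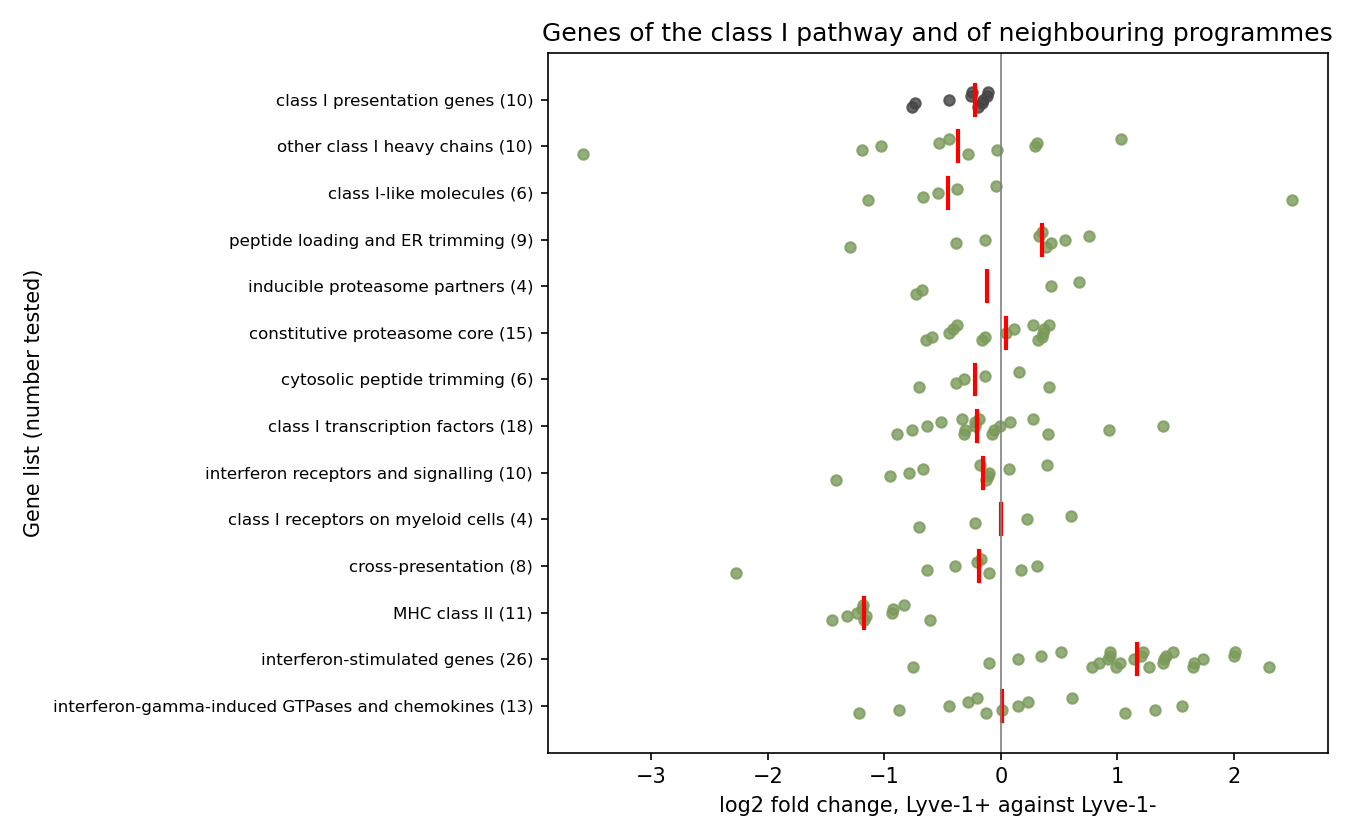
Fitted log2 fold change of Lyve-1+ against Lyve-1- libraries for each gene tested (points) in the class I presentation genes, 10 further lists of the pathway, MHC class II, interferon-stimulated genes and interferon-gamma-induced genes; the red bar is the median of a list and the number tested stands beside its name. The class I presentation genes cluster at a median of -0.22, between MHC class II at -1.17 and interferon-stimulated genes at 1.17.

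The class II genes, which present peptides of engulfed proteins to CD4+ T cells, were set beside the members. All 11 were below 0, with a median log2 fold change of -1.17, and 7 were lower without overlap between the subsets, as were 6.5% of all genes tested. *H2-Ab1*, a class II beta chain, fell by 1.45 ± 0.31 on the log2 scale with an edgeR adjusted p of 0.0466. That p was 0.0512, 0.161 and 0.0509 when Lyve-1- replicate 1, Lyve-1- replicate 3 or Lyve-1+ replicate 1 was left out, and 1.91e-05 to 0.271 over all alternatives. *Cd74*, the invariant chain, had a log2 fold change of -1.24 ± 0.27 (adjusted p = 0.0589), *Ciita*, the class II transactivator, of -1.19 ± 0.34 (0.189), *H2-Aa* of -1.16 ± 0.36 (0.287) and *H2-Eb1* of -0.94 ± 0.41 (0.574). By DESeq2, 3 of the 11 passed an adjusted p under 0.05, with 0.00135 for *H2-Ab1*, 0.00443 for *Cd74* and 0.0449 for *Ciita*. Over the alternatives, the adjusted p was 6.11e-05 to 0.359 for *Cd74* and 0.0449 to 0.921 for *Ciita*. The sum of *H2-Aa*, *H2-Ab1* and *H2-Eb1* divided by that of *H2-K1* and *H2-D1* was between 2.87 and 3 in the Lyve-1- libraries and 0.754, 1.42 and 2.14 in the Lyve-1+ libraries. The ratio was lower in every Lyve-1+ library, and an exact permutation test of 3 against 3 cannot go below a two-sided p of 0.1. Markers of conventional dendritic cells, which carry much class II, had 8 of 8 below 0 and summed to between 243 and 438 CPM in Lyve-1- and between 155 and 299 CPM in Lyve-1+ libraries. Their part, and that of the mature dendritic cell markers, in the class I and class II values was not tested.

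Interferon-induced genes were read because interferons raise the class I set. Of 26 interferon-stimulated genes, 24 were above 0 and 2 below, with a median of 1.17. None passed an adjusted p under 0.05, and 11 were above 0 with an unadjusted p under 0.05, which 7.69% of all genes tested had in either direction. *Ifit3*, an antiviral protein, was the highest, at 2.02, 18.8 and 4.96 CPM in Lyve-1- and 64.6, 54.8 and 7.81 CPM in Lyve-1+ libraries. Lyve-1+ replicate 3 lay within the Lyve-1- range, and the log2 fold change was 2.30 ± 0.90 (adjusted p = 0.494). *Isg20*, an exonuclease, was the lowest at -0.75 ± 1.07. Of 13 interferon-gamma-induced GTPases and chemokines tested, 7 were above and 6 below 0, with a median of 0.01. *Irgm2* was the highest of these, at 12.2, 17.7 and 8.89 CPM in Lyve-1- and 44.9, 37.5 and 31.6 CPM in Lyve-1+ libraries, with a log2 fold change of 1.55 ± 0.55 (adjusted p = 0.383). *Gbp5* was the lowest at -1.22 ± 0.47 (adjusted p = 0.466).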

How the data were processed

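RNA-seq was performed on 6 pools of sorted mammary macrophages, 3 per subset. The authors mapped paired 50-bp reads to mm10 with Hisat2 (version 2.0.2), counted them with featureCounts (1.5.0) and deposited raw counts per gene symbol without normalization. Libraries were made with a stranded total RNA kit. The paper states that samples were taken in duplicate, and that a 6-week sample was removed as an outlier with sequencing problems. The counting options for strand and for reads with several hits are not given in the sources used here.

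The 13348 genes kept by filterByExpr were scaled by TMM and tested with edgeR 4.0.16 (R 4.3.3) by quasi-likelihood F tests with robust estimation, Benjamini-Hochberg adjustment over all genes tested, and the subset as the only term. The SE is the absolute log2 fold change divided by the square root of F. CPM used the same scaling. Alternatives were DESeq2 1.42.0, other scalings and filters, a block for replicate number, a term for age, the 10-week libraries alone, removal of structural RNA genes, summed class I heavy chains and leaving out libraries.

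The members, lists and alternatives were chosen with earlier results of these data known. Named were all members, the sort genes, pathway genes with an adjusted p under 0.05 or the largest rise or fall in their list, proteasome counterparts, 5 class II genes and the 5 genes of nearest pattern. *Hm13* and *Ly6g* matched no symbol, and *Adgre1* and *Lilrb4a* were read as *Emr1* and *Lilrb4*.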

Additional observations from a re-analysis of the deposited data

Results flagged for a closer look

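*Nlrc5* was higher in Lyve-1+ than in Lyve-1- cells at 6 weeks, by 0.87 on the log2 scale, whereas the 10-week libraries gave a mean difference of -1.19. Every 10-week Lyve-1+ library was below every 10-week Lyve-1- library. The margin was narrow, with 152.6 CPM in Lyve-1+ replicate 2 and 155.1 CPM in Lyve-1- replicate 3. *H2-Bl* showed the opposite order, with a difference of -0.73 at 6 weeks and 1.3 at 10 weeks, at levels under 6 CPM. Each subset had 1 library at 6 weeks, and the difference between the ages was not tested. These were 2 of 42 named genes, and opposite directions at the ages can arise by chance from single libraries.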

How the results depend on the processing

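No member was called under any alternative, and none had an adjusted p under 0.05 in any of 167 refitted values, of which 161 kept their direction. The median log2 fold change of the members was between -0.208 and -0.299 over 17 alternatives. Values above 0 were 0.044 for *H2-T23* in the 10-week libraries alone and, when leaving out single libraries, the upper ends of the ranges for *H2-T23* (-0.538 to 0.05), *B2m* (-0.244 to 0.133), *Tap1* (-0.372 to 0.137), *Tapbp* (-0.367 to 0.255) and *Psmb8* (-0.457 to 0.093).

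The count of all genes called, 15, was 148 by DESeq2, 188 without a filter on low counts, 32 with at least 10 counts in every library, 58 with age as a covariate, 0 without both libraries with most olfactory receptor genes (where 4 libraries were left), 84 at an adjusted p under 0.05, and 1 to 81 when leaving out single libraries, the lowest being without Lyve-1- replicate 3. For the other pathway genes, of which 0 were called, the count was 1 by DESeq2 and with at least 10 counts in every library (*Fcgrt*), 2 without a filter (*Fcgrt* and *Jak2*), 2 with age as a covariate (*Fcgrt* and *H2-M2*), 1 in the 10-week libraries alone (*H2-M2*), 1 at an adjusted p under 0.05 (*Fcgrt*) and 0 to 1 with each library left out. For the ages, where 0 genes were called and 444 had an unadjusted p under 0.05, the count was 14 by DESeq2, 12 without a filter, 3 at an adjusted p under 0.05 and 0 to 20 with each 10-week library left out. The cause of these shifts was not tested.

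With the replicate number as a block, 140 genes, 2 other pathway genes (*Fcgrt* and *H2-M2*) and 0 members were called, and 4 interferon-stimulated genes (*Oas2*, *Oasl1*, *Oasl2* and *Rsad2*, all higher in Lyve-1+) and 3 class II genes (*H2-Ab1*, *H2-DMa* and *Cd74*) passed an adjusted p under 0.05. *Lyve1* itself did not pass with this block, at a log2 fold change of 7.73 and an edgeR adjusted p of 0.439. Deviations from the subset means had correlations of -0.046, -0.002 and -0.147 between same-numbered libraries over 13348 genes. With 3 libraries per subset, these values cannot decide whether same-numbered libraries came from the same mice.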
